A study of Cucumis melo with 9 samples.

Results

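The fermentation branch of melon fruit was followed through 7 genes across cold storage and rewarming: the pyruvate decarboxylases CmPDC1 and CmPDC2, the alcohol dehydrogenases CmADH1 and CmADH2, and 3 further genes that the deposited table describes as alcohol dehydrogenases (MELO3C002189.2, MELO3C003251.2 and MELO3C026553.2). They were taken by their gene IDs, 7 of 29980 genes in the table, and all 7 had a mean FPKM (a read count normalised for gene length and library total) above 1, the minimum for testing. The fruit were of melon 'HT', a climacteric oriental cultivar grown in a greenhouse and harvested ripe at 30 days after pollination. Recovered fruit (group A) had 7 d of storage at 4°C followed by 1 d at about 22°C, chilled fruit (group B) had 8 d at 4°C with no day in the warm, and unchilled fruit (group C) were picked on day 8 without storage. Each group had 3 libraries of 3 fruits each. Recovered and chilled fruit thus shared their harvest, whereas both differ from unchilled fruit in storage and in harvest day, which cannot be told apart.

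In plant cells, pyruvate decarboxylase (PDC) splits carbon dioxide off pyruvate and leaves acetaldehyde, and alcohol dehydrogenase (ADH) reduces acetaldehyde to ethanol while turning NADH back into NAD+. This pair of reactions is best known for keeping glycolysis running when oxygen is short. In ripening melon the same enzymes also serve aroma, because alcohols made by ADH are the substrates from which alcohol acyltransferases (AATs) build volatile esters. ADHs belong to different protein families. The medium-chain enzymes hold zinc, and the short-chain dehydrogenase/reductase family does without it.

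The table of annotations split the members along those lines. CmADH1 (MELO3C023685.2, chromosome 1, 6928411 to 6930701, minus strand) carried the KEGG number of the classical plant ADH type, and CmADH2 (MELO3C014897.2, chromosome 6, 21578440 to 21582640, plus strand) was described as a short-chain dehydrogenase/reductase, so that its name as an ADH rests on the study. MELO3C002189.2 (chromosome 12, 25708847 to 25712824, minus strand) was an alcohol dehydrogenase family protein. MELO3C003251.2 (chromosome 8, 33744925 to 33773581, plus strand) had the broadest span, 28.7 kb for a counted length of 1305 bases, and 3 genes on the opposite strand, all with 0 counts, lie inside it. MELO3C026553.2 (chromosome 3, 24852658 to 24856344, minus strand) was described as alcohol dehydrogenase-like 7 with the KEGG number of the glutathione-dependent formaldehyde dehydrogenase class. CmPDC1 (MELO3C009145.2, chromosome 4, 33965002 to 33967779, plus strand) and CmPDC2 (MELO3C007227.2, chromosome 8, 1603607 to 1606674, minus strand) shared 1 KEGG number. The coordinates are those of the table, which names no build, and the study's methods name the DHL92 genome, version 3.5.1. The sources used here do not give a strand setting for the counting, so the level of MELO3C003251.2 could hold reads of the genes inside it.

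The libraries held 15508367 to 19011486 counted reads and 18219 to 18581 genes with a count. Levels below are deposited FPKM divided by the TMM factor of the library (scaled FPKM). These factors were 1.12 to 1.13 in recovered, 0.764 to 0.809 in chilled and 1.11 to 1.13 in unchilled libraries. Ripening genes of the flesh were present, among them CmNOR at 1000 to 1276, 23.8 to 27.8 and 684 to 917 scaled FPKM in recovered, chilled and unchilled fruit, and phytoene synthases at sums of 90.2 to 114, 10.9 to 15.4 and 96.4 to 132. The other flesh markers did not all follow CmNOR. Polygalacturonases (16 of 82 tested) summed to 717 to 830, 306 to 363 and 1341 to 1726, with recovered below unchilled fruit. CmACO1 had 633 to 2421, 466 to 593 and 1058 to 1423. Summed markers of other tissues also moved between the groups. Green tissue (58 of 92 genes tested) summed to 9548 to 13010, 9398 to 10970 and 22710 to 32180 scaled FPKM in recovered, chilled and unchilled fruit, rind or epidermis (13 of 23 tested) to 144 to 247, 164 to 318 and 356 to 1161, phloem (9 of 18 tested) to 79.7 to 109, 234 to 316 and 299 to 551, and seed (3 of 39 tested) to 18.3 to 23.7, 53.8 to 90.4 and 47.1 to 62.0. Within the phloem, seed and green tissue lists single genes went both ways. By the call defined below, chilled against unchilled fruit had 4 phloem genes higher and 4 lower. Seed had 2 higher and 1 lower, green tissue 7 and 22, and rind or epidermis 0 and 6. Over all tested genes 22.1% were called higher and 26.2% lower. The part of these tissues in the results below was not tested.

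**Figure D1:**
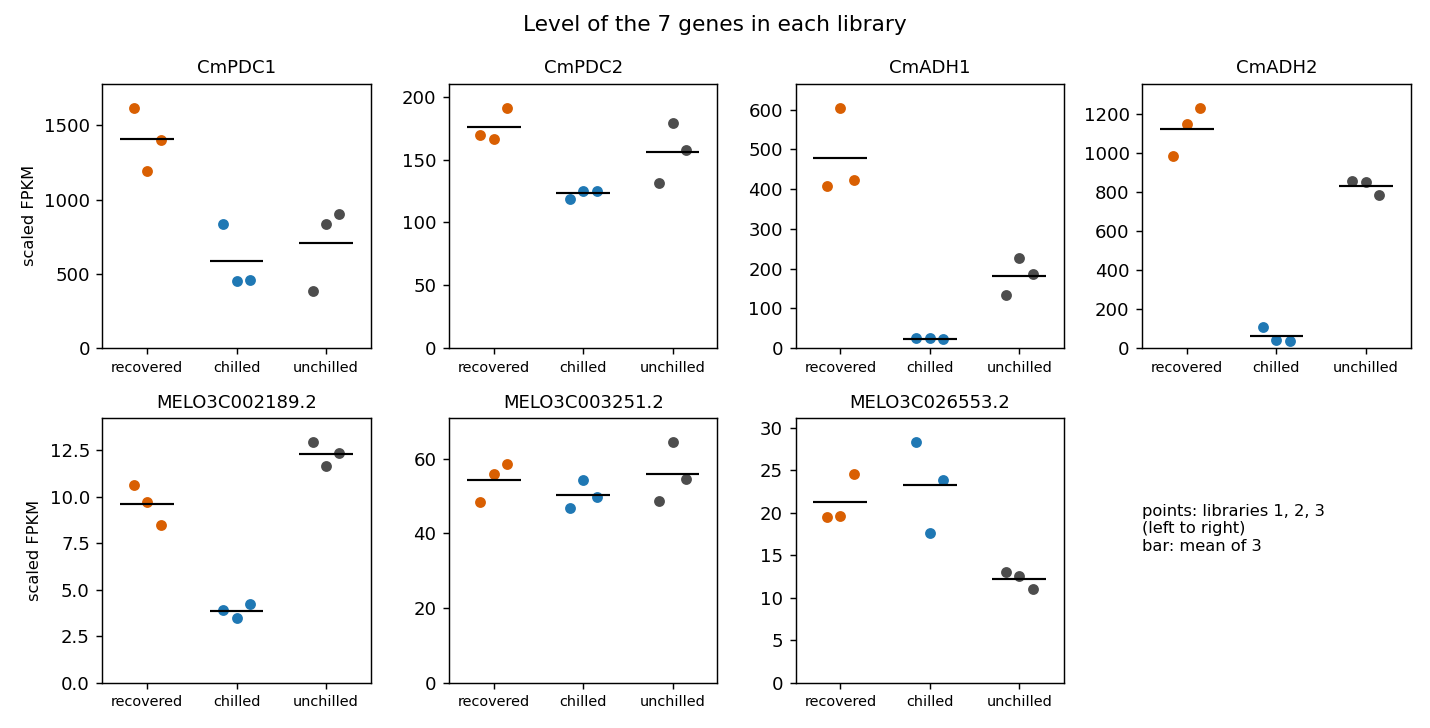
Scaled FPKM of the 2 PDCs and 5 ADHs on linear axes from 0, with 1 point per library (3 per group) and a bar at each mean, for recovered, chilled and unchilled fruit. CmADH1 and CmADH2 are near the floor of their panels in all 3 chilled libraries, whereas MELO3C003251.2 stays between 46.8 and 64.4 in all 9 on this scale, which includes the TMM factor.

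CmPDC1 was the most abundant PDC in every library, and it stood out in recovered fruit. It measured 1618, 1195 and 1399 scaled FPKM in recovered libraries, 837, 454 and 459 in chilled libraries and 382, 838 and 905 in unchilled libraries. All recovered libraries lay above all others, whereas chilled and unchilled libraries overlapped, with 1 chilled library high and 1 unchilled library low. CmPDC2 measured 169, 166.4 and 191 scaled FPKM in recovered, 119, 125 and 125 in chilled and 132, 179 and 158 in unchilled libraries. Its chilled libraries lay below all others in a narrow band, and its recovered and unchilled libraries overlapped.

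CmADH1 and CmADH2 carried the strongest response. CmADH1 measured 409, 605 and 424 scaled FPKM in recovered, 25.9, 24.3 and 22.1 in chilled and 133, 228 and 186 in unchilled libraries, so that the 3 groups formed separate blocks. CmADH2 measured 989, 1153 and 1235 scaled FPKM in recovered, 110, 41.7 and 36.5 in chilled and 858, 855 and 788 in unchilled libraries. Its groups did not overlap either, but chilled replicate 1 was well above the other chilled libraries.

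Among the other ADHs the patterns diverged. MELO3C002189.2, the weakest of the 7 by mean level, measured 10.6, 9.72 and 8.49 scaled FPKM in recovered, 3.90, 3.51 and 4.22 in chilled and 12.9, 11.7 and 12.3 in unchilled libraries. It was low in chilled fruit like CmADH1 and CmADH2, but its recovered libraries all stayed under the unchilled ones. MELO3C026553.2 ran the other way, with 19.5, 19.6 and 24.5 scaled FPKM in recovered, 28.3, 17.6 and 23.8 in chilled and 13.0, 12.5 and 11.04 in unchilled libraries. In scaled FPKM both stored groups exceeded unchilled fruit in every library and overlapped each other. This depends on the scaling. With FPKM as deposited, chilled (21.59, 14.23 and 19.28) and unchilled libraries (14.41, 14.04 and 12.46) overlapped. Recovered libraries (21.81, 22.25 and 27.55) then lay above both. MELO3C003251.2 measured 48.3, 55.9 and 58.5 scaled FPKM in recovered, 46.8, 54.3 and 49.8 in chilled and 48.8, 64.4 and 54.6 in unchilled libraries, and all 3 groups overlapped. That overlap also depends on the scaling. With FPKM as deposited, its chilled libraries (35.8, 43.8 and 40.3) lay below all recovered (54.0, 63.5 and 65.8) and unchilled ones (54.2, 72.3 and 61.6).

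The order of the 7 genes by level, which FPKM allows because it is per length, differed between the groups. In recovered fruit CmPDC1 (1404 ± 212 scaled FPKM, SD, n = 3) and CmADH2 (1125 ± 125) came first with overlapping libraries, followed by CmADH1 (479 ± 109), CmPDC2 (176 ± 13.6), MELO3C003251.2 (54.3 ± 5.28), MELO3C026553.2 (21.2 ± 2.85) and MELO3C002189.2 (9.61 ± 1.07), each apart from its neighbour. In chilled fruit CmPDC1 (583 ± 220 scaled FPKM) and CmPDC2 (123 ± 3.56) led. CmADH2 (62.8 ± 41.1) and MELO3C003251.2 (50.3 ± 3.8) overlapped below them, as did CmADH1 (24.1 ± 1.92) and MELO3C026553.2 (23.2 ± 5.33), and MELO3C002189.2 (3.88 ± 0.36) came last. In unchilled fruit CmADH2 (834 ± 39.4 scaled FPKM) and CmPDC1 (708 ± 285) overlapped, CmADH1 (182 ± 47.7) and CmPDC2 (156 ± 23.8) overlapped, MELO3C003251.2 (55.9 ± 7.90) stood alone, and MELO3C002189.2 (12.3 ± 0.636) and MELO3C026553.2 (12.2 ± 1.01) overlapped.

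Seen against the whole table, CmPDC1 ranked 16 to 22 of all genes by FPKM in recovered, 87 to 198 in chilled and 32 to 122 in unchilled libraries. CmADH2 ranked 23 to 36, 1497 to 3938 and 38 to 40 in the same groups, and the median rank of CmADH1 was 115, 5161 and 389. CmPDC1 thus ranked 198 or better in every library, while CmADH1 and CmADH2 left the foremost ranks in chilled fruit.

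The comparison of chilled with unchilled fruit sets stored fruit against fruit of a later harvest that were not stored. There 3 ADHs fell, no PDC was called, and 1 ADH measured higher without passing the fold threshold. A call needed a log2 fold change beyond 1 in either direction with an adjusted p below 0.05 (edgeR quasi-likelihood test, Benjamini-Hochberg over 15022 genes). In this comparison 3 of the 7 were called, 0 higher and 3 lower, when 48.3% of all tested genes were called and 26.2% were called lower. The median log2 fold change of the 7 was -0.34, against -0.06 over all tested genes. Groups did not overlap for 5 of the 7 (4 with chilled fruit lower, 1 higher), and for 78.3% of all tested genes (40.6% with chilled fruit lower, 37.7% higher).

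CmADH2 fell by 3.73 on the log2 scale in chilled fruit (SE 0.411, adjusted p = 4.17e-05 by edgeR), 13.3-fold lower than in unchilled fruit, and 2.63% of tested genes had a lower value. Without chilled replicate 1 its log2 fold change was -4.41. CmADH1 fell by 2.92 (SE 0.226, adjusted p = 2.85e-06 by edgeR), 7.56-fold lower, and 5.38% of tested genes had a lower value. MELO3C002189.2 fell by 1.66 (SE 0.136, adjusted p = 3.28e-06 by edgeR). In all 3 genes every chilled library lay below every unchilled one.

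The other 4 members did not reach the call. CmPDC1 had a log2 fold change of -0.28 (95% interval -1.07 to 0.51, adjusted p = 0.482 by edgeR), an interval that reaches past -1. CmPDC2 had -0.34 (SE 0.114, adjusted p = 0.0208 by edgeR), past the p threshold, as 75.4% of all tested genes were, but of small size. The size of both depends on the scaling. Library totals in place of the TMM factor gave -0.79 for CmPDC1 and -0.84 for CmPDC2, neither of them called. MELO3C026553.2 had 0.93 (SE 0.176, adjusted p = 0.000914 by edgeR), and without chilled replicate 2, its lowest chilled library, it had 1.096 and was called. MELO3C003251.2 had -0.15 (95% interval -0.42 to 0.12, adjusted p = 0.272 by edgeR).

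**Figure D2:**
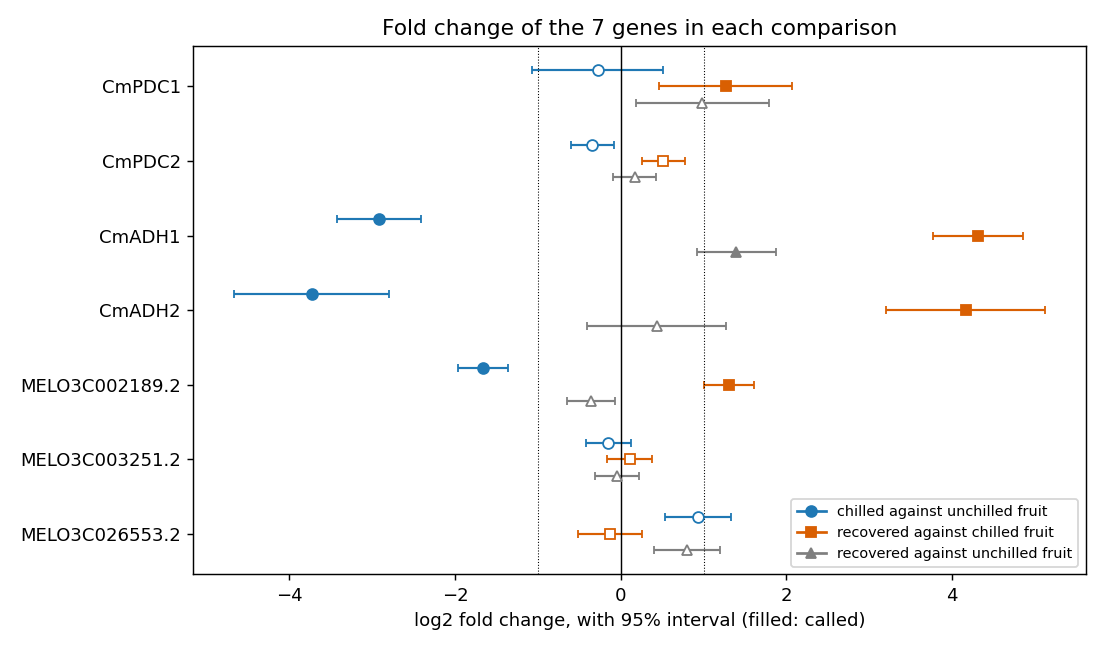
Log2 fold change of each member on the x axis with its 95% interval, for chilled against unchilled (circles), recovered against chilled (squares) and recovered against unchilled fruit (triangles), filled where called and with dotted lines at -1 and 1. CmADH1 lies at -2.92, 4.31 and 1.40 and is the only member called in all 3 comparisons.

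The comparison of recovered with chilled fruit asks how fruit given 1 d at room temperature stood against fruit kept in the cold. Here CmPDC1 and 3 of the 5 ADHs rose. Of the 7 genes 4 were called, all 4 higher and 0 lower, when 50.4% of all tested genes were called, 25.1% higher and 25.3% lower. The median of the 7 was 1.27, against -0.02 over all tested genes. Groups did not overlap for 5 of the 7, all with recovered fruit higher, and for 79.9% of all tested genes (39.4% with recovered fruit higher, 40.5% lower). This comparison uses the same chilled libraries as the one before it, so its values are set beside the earlier ones and are not a further test of them.

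CmADH1 rose by 4.31 on the log2 scale (SE 0.240, adjusted p = 3.43e-07 by edgeR), 19.9-fold, and only 1.47% of tested genes had a higher value. CmADH2 rose by 4.16 (SE 0.419, adjusted p = 2.18e-05 by edgeR), 17.9-fold, and 1.66% of tested genes had a higher value. Without chilled replicate 1 the log2 fold change of CmADH2 was 4.85. MELO3C002189.2 rose by 1.31 (SE 0.136, adjusted p = 1.52e-05 by edgeR), which left it short of unchilled fruit in every library.

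CmPDC1 rose by 1.27 (SE 0.353, adjusted p = 0.00937 by edgeR), 2.41-fold, the only PDC called in any comparison. CmPDC2 had a log2 fold change of 0.51 (SE 0.115, adjusted p = 0.00245 by edgeR), past the p threshold, as 77.1% of all tested genes were, but not the fold threshold. MELO3C003251.2 had 0.11 (95% interval -0.16 to 0.38) and MELO3C026553.2 -0.13 (adjusted p = 0.503 by edgeR). Neither of these ADHs was called in this comparison or the one before it.

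The comparison of recovered with unchilled fruit asks how far rewarmed fruit stood from fruit that were never stored. Of the 7 genes 1 was called, CmADH1, when 12.8% of all tested genes were called, 3.66% higher and 9.15% lower. The median of the 7 was 0.43, against 0.01 over all tested genes. Groups did not overlap for 5 of the 7 (4 with recovered fruit higher, 1 lower), and for 52.9% of all tested genes (27% with recovered fruit higher, 25.9% lower). It shares its recovered and unchilled libraries with the other comparisons.

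CmADH1 was higher in recovered fruit by 1.40 on the log2 scale (SE 0.211, adjusted p = 0.00135 by edgeR), 2.63-fold, and 2.36% of tested genes had a higher value. CmPDC1 had a log2 fold change of 0.99 (SE 0.351, adjusted p = 0.0559 by edgeR), just short of both thresholds, and was called by DESeq2 and by limma. CmADH2 had 0.43 (95% interval -0.41 to 1.27, adjusted p = 0.392 by edgeR) although its recovered libraries all lay above its unchilled ones. MELO3C026553.2 had 0.80 (SE 0.175, adjusted p = 0.00724 by edgeR), 1.74-fold, past the p threshold, as 36.6% of all tested genes were, but not the fold threshold. MELO3C002189.2 had -0.36 (adjusted p = 0.0551 by edgeR), CmPDC2 0.17 (adjusted p = 0.277) and MELO3C003251.2 -0.04 (95% interval -0.31 to 0.23).

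Adding the members by step puts the ADH and PDC members side by side. The sums leave out ADH-like genes that are not members, so they do not stand for all ADH transcripts. Among those left out, MELO3C022399.2 averaged 107, 179 and 114 scaled FPKM in recovered, chilled and unchilled fruit, and MELO3C026554.2 136, 102 and 133. In chilled fruit MELO3C022399.2 alone exceeded the mean ADH sum of 164. The ADH sum also includes CmADH2, which is described as a short-chain dehydrogenase/reductase. The 5 ADHs summed to 1476, 1843 and 1750 scaled FPKM in recovered, 215, 141 and 137 in chilled and 1065, 1172 and 1052 in unchilled libraries. The mean sum was 6.67-fold lower in chilled than in unchilled fruit, 10.3-fold higher in recovered than in chilled fruit and 1.54-fold higher in recovered than in unchilled fruit. With FPKM as deposited, which leaves out the TMM factor, it was 9.48-fold lower and 14.7-fold higher in the first 2 of these. The 2 PDCs summed to 1787, 1361 and 1591 scaled FPKM in recovered, 956, 579 and 584 in chilled and 514, 1017 and 1063 in unchilled libraries. The same folds were 1.22-fold lower, 2.24-fold higher and 1.83-fold higher for the PDCs, and the chilled and unchilled PDC sums overlapped. In bulk fruit, fewer cells of a type and less RNA per cell cannot be told apart, which holds for every level given here.

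The make-up of the ADH sum differed between the groups. CmADH2 made up 66.7 ± 4.0% of it in recovered, 35.8 ± 13.4% in chilled and 76.2 ± 3.92% in unchilled fruit (SD, n = 3). MELO3C003251.2, whose own level was not called in any comparison, made up 3.22 ± 0.161%, 32.2 ± 9.11% and 5.09 ± 0.467% in the same groups, and MELO3C026553.2 made up 1.26 ± 0.175%, 14.4 ± 2.71% and 1.11 ± 0.0927%. CmADH1 made up 28.3 ± 4.32% in recovered, 15.1 ± 2.71% in chilled and 16.5 ± 3.64% in unchilled fruit. CmPDC1 supplied 74.4% to 90.5% of the PDC sum in all 9 libraries.

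**Figure D3:**
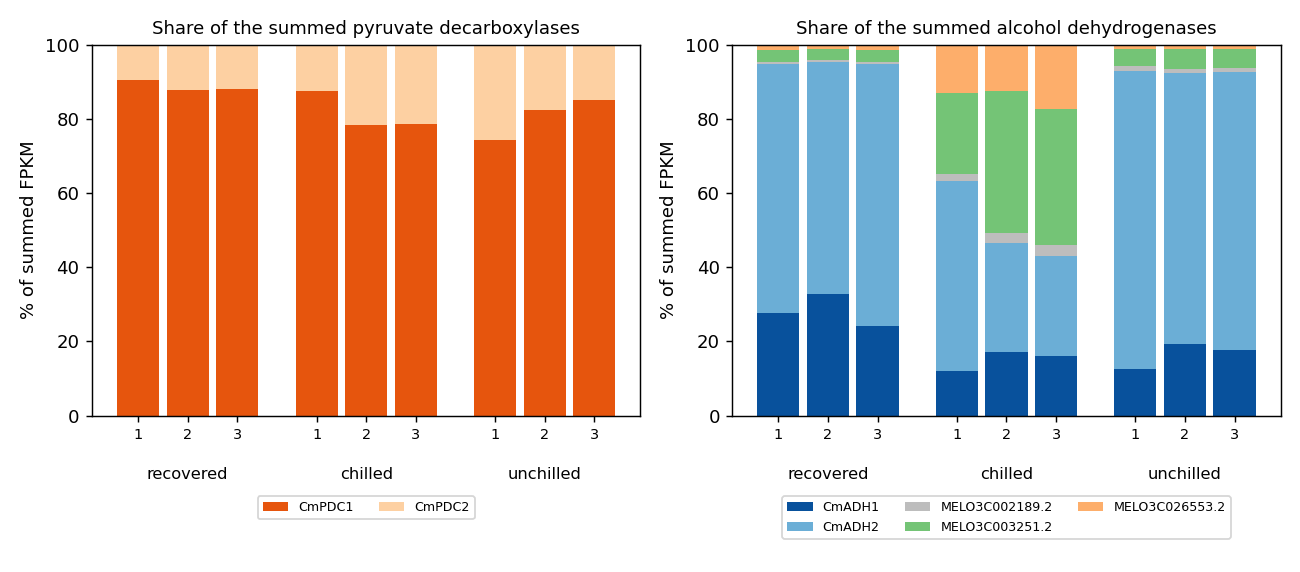
Percent of the summed PDC (left) and ADH (right) scaled FPKM that each member supplied, 1 stacked bar per library, for recovered, chilled and unchilled fruit. In the ADH panel MELO3C003251.2 takes 21.8% to 38.4% in chilled libraries and at most 5.50% in the others.

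Ratios of members within a library do not depend on how libraries are scaled, which is of use here because the scaling factors of chilled fruit differ from the rest. CmADH1 stood to CmPDC1 at a log2 ratio of -1.56 ± 0.52 in recovered, -4.54 ± 0.418 in chilled and -1.90 ± 0.38 in unchilled fruit (SD, n = 3). The difference was -2.64 on the log2 scale for chilled against unchilled fruit, 6.24-fold lower, and the ratio was 7.86-fold higher in recovered than in chilled fruit, with no overlap in either case (exact permutation test, two-sided, p = 0.1 each, adjusted p = 0.18 over 9 tests, where 0.1 is the smallest p that 3 against 3 can give). Recovered and unchilled fruit overlapped in it, with a difference of 0.33 (exact permutation p = 0.5).

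The balance within each step shifted less than this in the comparisons with chilled fruit. Between recovered and unchilled fruit it shifted more than the 0.33 of CmADH1/CmPDC1. CmADH1 stood to CmADH2 at a log2 ratio of -1.25 ± 0.306 in recovered, -1.20 ± 0.771 in chilled and -2.23 ± 0.412 in unchilled fruit, so that CmADH1 had a greater place in recovered than in unchilled fruit by 0.98 (exact permutation p = 0.1, adjusted 0.18, no overlap). CmPDC1 stood to CmPDC2 at 2.99 ± 0.23 in recovered, 2.18 ± 0.547 in chilled and 2.095 ± 0.506 in unchilled fruit, 0.81 higher in recovered than in chilled and 0.90 higher than in unchilled fruit (exact permutation p = 0.1 each, adjusted 0.18). The exact permutation test cannot go below 0.1 with 3 libraries against 3.

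**Figure D4:**
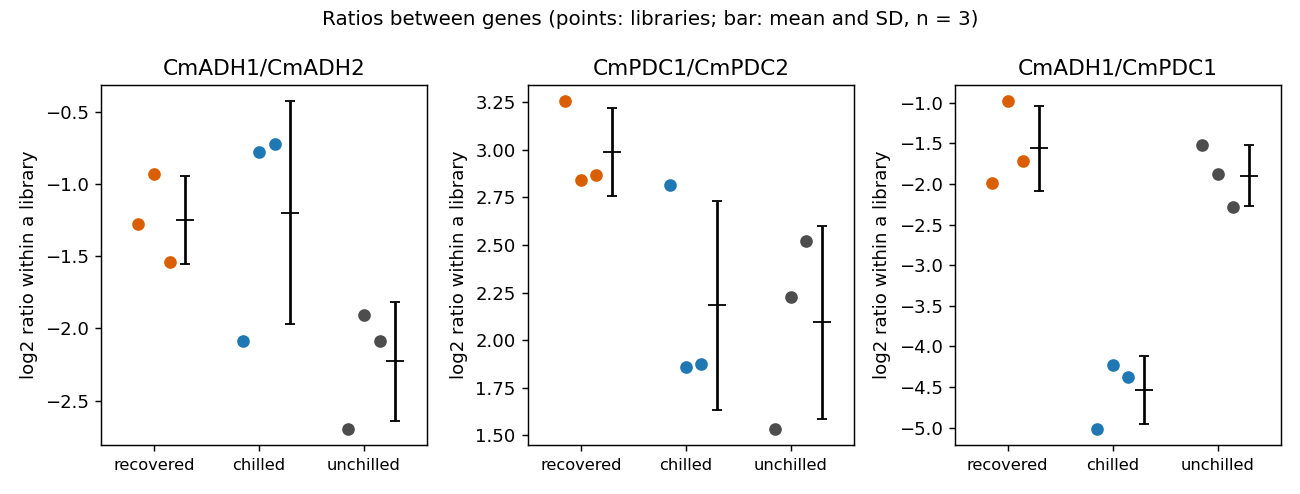
Log2 ratio of 2 members within each library for CmADH1/CmADH2, CmPDC1/CmPDC2 and CmADH1/CmPDC1, with points for the 3 libraries and a bar for mean and SD, in recovered, chilled and unchilled fruit; the axes do not start at 0. The CmADH1/CmPDC1 panel has chilled libraries between -5.01 and -4.23 and all others at or above -2.29.

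Correlations were taken across the 9 libraries, which fall into 3 groups and in each of which all genes share 1 depth. On log2 CPM, levels of CmADH1 and CmADH2 had a Pearson r of 0.947, CmADH2 and MELO3C002189.2 0.919, CmADH1 and CmPDC2 0.897, and CmADH1 and CmPDC1 0.726. MELO3C026553.2 had r between -0.671 and 0.222 with the others. The genes outside the members whose pattern was most like that of CmADH1 were MELO3C013491.2, a U11/U12 small nuclear ribonucleoprotein (r = 0.999), MELO3C005277.2, a ubiquitin-conjugating enzyme variant, and MELO3C010117.2, a phosphatidylinositol phosphate kinase, all at r of 0.997 or more over 9 libraries. For CmADH2 they were MELO3C006218.2 (nuclear matrix protein 1, r = 0.997), MELO3C021633.2 (actin family) and MELO3C009804.2 (AP2-like transcription factor family). For CmPDC1 they were MELO3C022598.2 (tobamovirus multiplication 1 homolog, r = 0.978), MELO3C032523.2 (a transposon polyprotein) and MELO3C008866.2 (choline transporter family), and for CmPDC2 MELO3C011165.2 (myosin heavy chain-related, r = 0.970), MELO3C032193.2 (diacylglycerol kinase) and MELO3C003298.2 (high mobility group B protein 1).

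Among the remaining ADHs, MELO3C002189.2 was closest to MELO3C008671.2 (avirulence cleavage site protein, r = 0.997), MELO3C016818.2 (a mitochondrial porin) and MELO3C006565.2 (RING finger). MELO3C026553.2 was closest to MELO3C019097.2 (arginine/serine-rich coiled-coil 2, r = 0.954), MELO3C015554.2 (FYVE zinc finger) and MELO3C022422.2 (F-box). For MELO3C003251.2, MELO3C020845.2 (glycosyltransferase) came first at r = 0.857, before MELO3C019445.2 (a DNA helicase) and MELO3C009801.2 (ARM repeat). A high r is a matter of shape only: MELO3C013491.2 averaged 28.5, 10.8 and 21.2 scaled FPKM in recovered, chilled and unchilled fruit, a far narrower range than that of CmADH1.

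The table holds further genes described or numbered like these families, of which 9 ADH-like genes reached a testable level. The table has 17 other genes described or numbered as alcohol dehydrogenases and 4 other PDCs, of which 12 stayed under the FPKM minimum and 6 had no count in any library. A count of 0 in 150860859 reads allows up to 3 counts, or 0.0199 CPM. This limit covers sampling only, and not reads that fit more than 1 copy. MELO3C023687.2, of the same KEGG class as CmADH1 and 55.9 kb from it with 1 gene between, had 0 counts, as did MELO3C027151.2 of that class. The 4 other PDCs had 0 to 17 counts over all 9 libraries, so that CmPDC1 and CmPDC2 were the only PDCs measured at a testable level.

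Of the 9 other ADH-like genes that were tested, 4 were called lower and 0 higher in chilled against unchilled fruit, with a list median of -0.39. Over all tested genes 26.2% were called lower and 22.1% higher in that comparison. All 4 (MELO3C003735.2 at -1.67, MELO3C007702.2 at -1.89, MELO3C023272.2 at -1.64 and MELO3C034560.2 at -2.50) carry the KEGG number of cinnamyl-alcohol dehydrogenase, an enzyme of lignin precursors, and not that of fermentation. In recovered against chilled fruit only MELO3C023272.2 was called, higher by 1.03, and in recovered against unchilled fruit 0 were higher and 3 lower. MELO3C023272.2 averaged 70.6 ± 4.65 scaled FPKM in recovered, 34.5 ± 15.8 in chilled and 108 ± 34.8 in unchilled fruit, whereas the other 3 of these genes had a mean of 16.3 or less in every group.

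The other 5 tested genes were not called in any comparison. MELO3C026554.2, also described as alcohol dehydrogenase-like 7, lies 8.77 kb from MELO3C026553.2 and averaged 136 ± 3.27 scaled FPKM in recovered, 102 ± 10.3 in chilled and 133 ± 39.3 in unchilled fruit, well above its neighbour. MELO3C026552.2, on the other side at 2.19 kb, had 18 counts in all. The sources used here do not state how reads that fit more than 1 of these copies were treated, so the values of MELO3C026553.2 carry that doubt. MELO3C022399.2, of the same KEGG class, averaged 107 ± 7.34, 179 ± 2.24 and 114 ± 3.12 scaled FPKM in recovered, chilled and unchilled fruit (log2 fold change 0.65 for chilled against unchilled fruit), and MELO3C019503.2 averaged 53.0 ± 0.798, 67.3 ± 2.0 and 33.7 ± 2.65 (1.00, just under the threshold before rounding). MELO3C003373.2 averaged 102 ± 7.01, 84.4 ± 6.77 and 75.4 ± 2.44, and MELO3C026850.2 19.9 ± 1.98, 21.4 ± 1.21 and 16.5 ± 0.764. MELO3C019503.2 and MELO3C026850.2 carry KEGG numbers outside the ADH numbers used for the list, and MELO3C003373.2 carries none. These genes are listed by a word in their description and may not be ADHs.

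Genes of the steps around PDC and ADH were read from lists of words and KEGG numbers. Over all tested genes, 22.1% were called higher and 26.2% lower in chilled against unchilled fruit. The shares were 25.1% and 25.3% in recovered against chilled fruit, and 3.66% and 9.15% in recovered against unchilled fruit. The counts of the lists below are to be read beside these shares, and no list was tested as a set. Pyruvate kinase makes the pyruvate that PDC uses. Of 12 tested genes of its list, 5 were called higher and 1 lower in chilled against unchilled fruit, 2 higher and 3 lower in recovered against chilled fruit, and 1 higher and 1 lower in recovered against unchilled fruit. MELO3C003381.2 had the lowest called value (-2.42, at 30.6 ± 3.01 scaled FPKM in recovered, 7.77 ± 1.04 in chilled and 41.6 ± 5.65 in unchilled fruit). The highest (2.82) belonged to MELO3C027441.2, which is in the list by its KEGG number and is described as an unknown protein. Of the 5 called higher, MELO3C027441.2, MELO3C027760.2 and MELO3C028114.2 had low mean FPKM over all libraries, 4.29, 4.19 and 1.94. The others, MELO3C011769.2 (1.25) and MELO3C024509.2 (1.18), had 143 and 144. Apart from MELO3C027441.2, these genes were named after their values were seen.

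The pyruvate dehydrogenase complex draws on the same pyruvate for respiration. Of 16 tested genes of its list, 3 were called higher and 3 lower in chilled against unchilled fruit, 4 and 4 in recovered against chilled fruit, and 1 higher and 0 lower in recovered against unchilled fruit. MELO3C012035.2, an alpha subunit of the first enzyme of the complex, averaged 4.81 ± 0.447 scaled FPKM in recovered, 39.3 ± 7.90 in chilled and 1.53 ± 0.454 in unchilled fruit (log2 fold change 4.68 for chilled against unchilled fruit). By KEGG number, which was looked up after the values were seen, only 9 of the 16 are subunits of pyruvate dehydrogenase, with 2 called higher and 1 lower in chilled against unchilled fruit. Another 4 belong to the branched-chain ketoacid complex, with 1 called higher (MELO3C011705.2, 2.55) and 2 lower (MELO3C008063.2, -1.96, and MELO3C006679.2, -2.42, the lowest of the list), 2 are kinases of pyruvate dehydrogenase and 1 is a subunit of the 2-oxoglutarate complex. Lactate dehydrogenase is the other fermentative exit of pyruvate. The only called gene of its 2 was MELO3C009581.2 (1.17 for chilled against unchilled fruit), described as a D-lactate dehydrogenase of the class that oxidises lactate, and the L-lactate dehydrogenase MELO3C005539.2, a gene named after its value was seen, had -0.75 and averaged 3.86 ± 0.362, 4.57 ± 0.663 and 7.71 ± 1.63 scaled FPKM in recovered, chilled and unchilled fruit.

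Acetaldehyde that is not reduced can be oxidised by aldehyde dehydrogenase and activated by acetyl-CoA synthetase. Of 16 tested genes matched by the words for aldehyde dehydrogenase, 1 was called higher and 7 lower in chilled against unchilled fruit, 5 higher and 4 lower in recovered against chilled fruit, and 1 and 1 in recovered against unchilled fruit. MELO3C002203.2, the 1 that was higher, averaged 86.1 ± 5.83 scaled FPKM in recovered, 326 ± 15.6 in chilled and 71.4 ± 5.29 in unchilled fruit, and its KEGG number is that of pyrroline-5-carboxylate dehydrogenase, an enzyme of proline breakdown. MELO3C014601.2 had the lowest value, -2.48. By KEGG number, again looked up afterwards, 6 of the 16 are NAD-dependent aldehyde dehydrogenases of the general class, with 0 called higher and 4 lower in chilled against unchilled fruit. The other 10 include semialdehyde dehydrogenases of amino acid pathways and MELO3C012351.2 (-1.65, called), a phosphopantetheinyl transferase matched by a word in its description. Of 6 acetyl-CoA synthetases, 1 was called higher and 3 lower in chilled against unchilled fruit, 3 and 1 in recovered against chilled fruit, and 0 and 1 in recovered against unchilled fruit. They ran from -2.84 for MELO3C031046.2 (84.4 ± 16.5, 10.7 ± 1.77 and 76.5 ± 17.3 scaled FPKM in recovered, chilled and unchilled fruit) to 3.27 for MELO3C014682.2 (1.74 ± 0.0338, 11.6 ± 1.24 and 1.201 ± 0.533). Of these 6 only MELO3C014749.2 carries the KEGG number of the enzyme, looked up afterwards. It had 0.17 in chilled against unchilled fruit and was not called in any comparison. The others have no KEGG number and are listed by description.

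Cinnamyl alcohol dehydrogenases, relatives that reduce aldehydes of the phenylpropanoid pathway, were called lower in 6 and higher in 0 of 7 tested genes in chilled against unchilled fruit, higher in 3 and lower in 0 in recovered against chilled fruit, and higher in 0 and lower in 3 in recovered against unchilled fruit, 4 of the 7 being the ADH-like genes above. MELO3C019548.2 fell by 5.58 in chilled against unchilled fruit, averaging 39.8 ± 7.22 scaled FPKM in recovered, 1.17 ± 0.258 in chilled and 56.0 ± 12.9 in unchilled fruit, and MELO3C018492.2 fell by 1.33.

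Genes known from low-oxygen responses of plants did not move as 1 group. Of 21 tested genes, 4 were called higher and 6 lower in chilled against unchilled fruit, 8 higher and 3 lower in recovered against chilled fruit, and 6 higher and 2 lower in recovered against unchilled fruit, with list medians of -0.58, 0.59 and 0.04. Over all tested genes 48.3%, 50.4% and 12.8% were called in either direction in these comparisons, and the first 2 counts of the list are near those shares. MELO3C009886.2, a plant cysteine oxidase, the oxygen-sensing enzyme that marks ERF transcription factors for breakdown, averaged 140 ± 11.8 scaled FPKM in recovered, 3.06 ± 0.438 in chilled and 61.1 ± 2.96 in unchilled fruit (log2 fold changes -4.32, 5.52 and 1.198 for chilled against unchilled, recovered against chilled and recovered against unchilled fruit, all called). At the other end, the sucrose synthase MELO3C001956.2 averaged 0.209 ± 0.0487, 7.71 ± 0.597 and 0.240 ± 0.0361 (4.99 for chilled against unchilled fruit).

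Beyond these, 2 genes of the list were called in all 3 comparisons with the signs of CmADH1, and they were picked after their values were seen. The 2-on-2 hemoglobin MELO3C011160.2 averaged 62.9, 3.95 and 22.1 scaled FPKM in recovered, chilled and unchilled fruit, with log2 fold changes of -2.48, 3.99 and 1.51 in the order of comparisons just given. Alanine aminotransferase MELO3C022699.2 averaged 152, 15.1 and 57.6, with -1.94, 3.33 and 1.39. Other genes of the list, also picked afterwards, went against them. The ERF gene MELO3C021306.2 (RAP2-3-like) had 1.17 for chilled against unchilled fruit. From the same families as the 2 genes, non-symbiotic hemoglobin 2 (MELO3C012382.2) had 1.38 and alanine aminotransferase MELO3C024307.2 had 1.09 there. In recovered against chilled fruit MELO3C012382.2 had -1.87 and MELO3C024307.2 had -1.77, all called. These families thus did not follow CmADH1 as a whole.

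**Figure D5:**
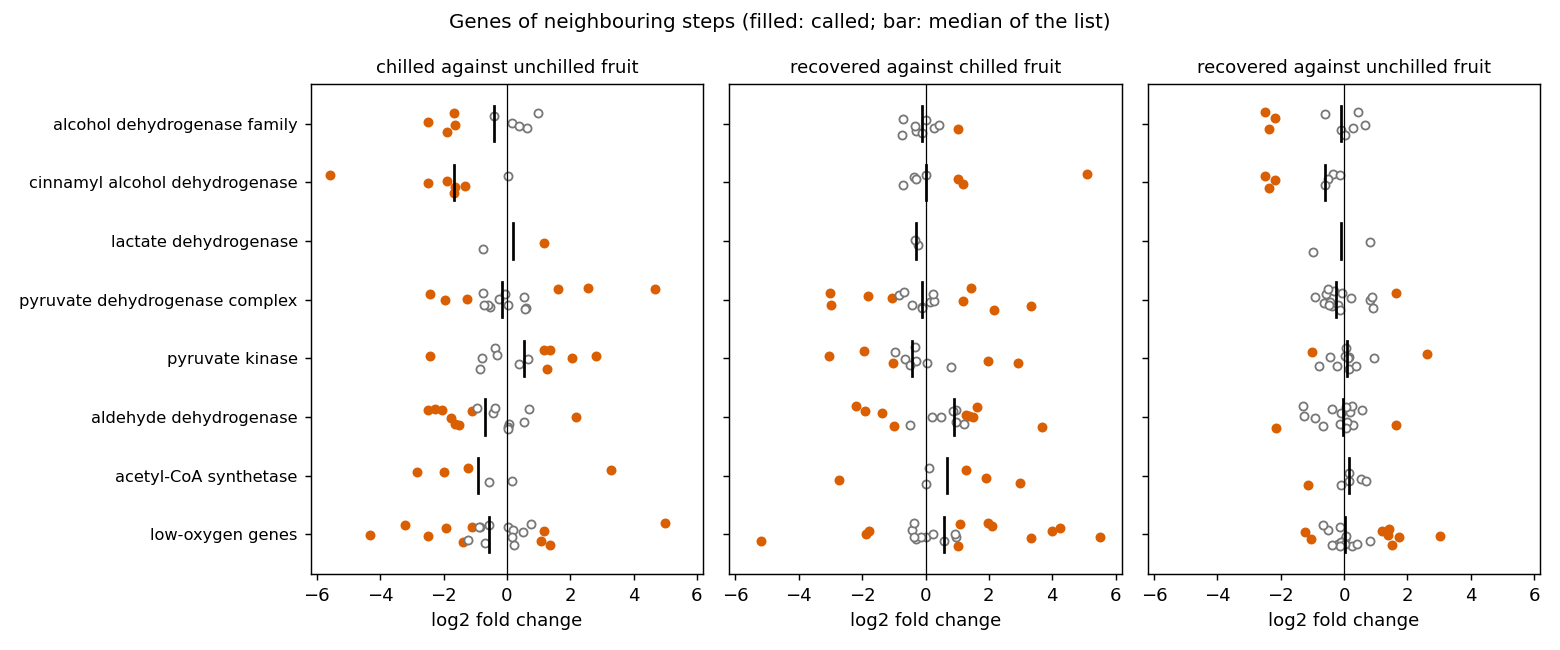
Log2 fold change (x axis) of each tested gene outside the members in 8 lists of neighbouring steps, 1 panel per comparison, filled where called, with a bar at the list median; 4 genes stand in both dehydrogenase lists at the top. In the panel of chilled against unchilled fruit the called genes of those lists all lie below 0, whereas the low-oxygen list has 4 above and 6 below.

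Downstream of ADH, the acyltransferase CmAAT1 (MELO3C024771.2), which joins alcohols to acyl groups, averaged 2459 ± 403 scaled FPKM in recovered, 313 ± 20.8 in chilled and 2057 ± 274 in unchilled fruit. CmAAT3 (MELO3C024762.2) averaged 0.654 ± 0.392, 0.138 ± 0.0794 and 6.12 ± 5.61 in the same groups.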

How the data were processed

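The authors deposited 1 table that gives, for each gene and each of 9 libraries, a read count and an FPKM value. Per the study's methods, reads of 150 bases were trimmed with Cutadapt 1.1, aligned to DHL92 with HISAT2 2.1.0 and assigned to genes with HTSeq 0.1.1. In the submitters' processing notes the versions are cutadapt 1.15 and HISAT2 2.0.5. The deposited FPKM equal count divided by gene length and library total (largest difference 4.5e-11), so they carry no correction for composition. A scaled FPKM is that value divided by the edgeR TMM factor.

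Counts were tested in R 4.3.3 with edgeR 4.0.16 (TMM, glmQLFit with robust = TRUE, glmQLFTest, all 9 libraries in 1 fit) over 15022 genes with a mean FPKM above 1. A call needed an absolute log2 fold change above 1 and an adjusted p below 0.05. Standard errors are the log2 fold change divided by the root of the quasi-likelihood F, and intervals are t-based at 95%. Ratios within libraries used counts plus 0.5 per length and exact permutation tests. The scripts were tested on simulated data. A replicate held 3 fruits, and p-values measure the spread between such samples.

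The members and lists were chosen with earlier results of these data known. Text names all 7 members, every other ADH or PDC gene tested, for each other list the highest and lowest called gene of chilled against unchilled fruit with a mean FPKM above 5 in the higher of the groups, CmAAT1 and CmAAT3, and the 3 described genes most like each member by Pearson r of log2(scaled CPM + 1). Words for organelle-encoded genes, meant as a mark of RNA quality, matched 0 genes. Alternatives used DESeq2 1.42.0 and limma 3.58.1 with a pseudocount of 1 or 0.1 on log2 FPKM.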

Additional observations from a re-analysis of the deposited data

How the results depend on the processing

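Each call of a member in the 3 comparisons was kept under DESeq2, DESeq2 size factors, library totals, limma, other filters, an adjusted p below 0.01, a fit with 2 groups and the replicate block, and with each library left out. Other calls were gained. With no fold change threshold, 5 members passed in chilled against unchilled fruit, adding MELO3C026553.2 (0.93) and CmPDC2 (-0.34), CmPDC2 (0.51) passed in recovered against chilled fruit, and 2 passed in recovered against unchilled fruit, adding MELO3C026553.2 (0.80). CmPDC1 was called in recovered against unchilled fruit, making 2 members, by DESeq2 (1.03, adjusted p = 0.00894), with DESeq2 size factors in edgeR (1.03, adjusted p = 0.04997) and by limma with a pseudocount of 1 (1.07, adjusted p = 0.0414) or 0.1 (1.07, adjusted p = 0.0427); its adjusted p ran from 0.00894 to 0.138 over all alternatives. Library totals moved the median of all genes to -0.56 for chilled against unchilled and 0.49 for recovered against chilled fruit, and there CmPDC2 was called (1.02) in recovered against chilled fruit. The cause of these gains was not tested. Library totals also moved members that were not called. CmPDC1 had -0.79 (adjusted p = 0.0565 by edgeR) and CmPDC2 -0.84 (adjusted p = 0.000127 by edgeR) in chilled against unchilled fruit. MELO3C026553.2 had 0.43 in chilled against unchilled fruit (adjusted p = 0.0368 by edgeR). MELO3C003251.2 had -0.65 in chilled against unchilled fruit (adjusted p = 0.00109 by edgeR) and 0.61 in recovered against chilled fruit (adjusted p = 0.00155 by edgeR).

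With single libraries left out, the log2 fold change of MELO3C026553.2 in chilled against unchilled fruit ranged from 0.77 to 1.096, and 3 to 4 members were called. The difference in the CmADH1/CmADH2 ratio between recovered and chilled fruit, -0.05, ranged from -0.50 to 0.18 and that in CmPDC1/CmPDC2 between chilled and unchilled fruit, 0.09, from -0.23 to 0.30, so neither has a direction. With FPKM as deposited the ADH sum was 1903 in recovered, 130 in chilled and 1228 in unchilled fruit, and the PDC sum 1777, 557 and 971. The PDC sum of chilled fruit was then 1.74-fold lower than that of unchilled fruit, and that of recovered fruit 3.19-fold higher than that of chilled fruit.

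Replicate numbers were not used as pairs in the main fit, and whether they mark pairs was not tested. Correlations of deviations for equal numbers were 0.146, 0.206 and -0.0748 in chilled against unchilled fruit, with -0.217 to 0.127 for unequal numbers. In recovered against chilled fruit equal numbers gave 0.0167, -0.0751 and 0.0543, and unequal ones -0.0702 to 0.0449. In recovered against unchilled fruit equal numbers gave -0.148, -0.184 and -0.148, and unequal ones 0.0029 to 0.147. The replicate block left 3, 4 and 1 members called in the 3 comparisons.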
